A study of Drosophila melanogaster with 4 samples.

Results

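CG44325 and CG10970 are protein-coding genes of the Drosophila X chromosome that lie on the minus strand and overlap, so that the start of CG10970 falls inside CG44325. All rows with either name in the authors' deposited tables were taken, which gave 10 intervals of 2 genes among 17175 rows and 4841 genes, 9 of CG44325 and 1 of CG10970. The pair was chosen by its deposited adjusted p-values, under 0.05 in the 5' UTR, intron and 3' UTR tables, and by its overlapping ranges, so the deposited fold changes and p-values below describe the pair and lend no independent support to its choice.

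The data come from individual-nucleotide resolution crosslinking and immunoprecipitation (iCLIP), in which RNA is crosslinked to protein by ultraviolet light, pulled down with an antibody and sequenced so that each read marks a crosslinked position. The cells were SL2, a line from male Drosophila embryos. A rabbit polyclonal antibody to Ssx (Sister of Sex-lethal) was used for 2 libraries and rabbit IgG, as control, for 2 libraries. The labels name no treatment and do not tell whether replicate libraries are from different cultures, so the deposited p-values may measure technical spread. An interval was called when its deposited adjusted p was under 0.05.

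Ssx is a paralog of Sex-lethal (Sxl), the switch protein of sex determination in Drosophila, and both are RNA-binding proteins. Sxl is known for binding U-rich stretches in introns and UTRs, where it changes splicing and translation, and Ssx is known to bind similar RNA. No molecular role was assigned here to the proteins of CG44325 or CG10970.

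RefSeq places CG10970 at X, 9069599 to 9071408, with 2 transcripts, and CG44325 at X, 9070318 to 9078499, with 5 transcripts (Release 6, the assembly called dm6 in the submitters' processing notes). The intervals of both genes end at the same bases as these gene models, 9071408 and 9078499. RefSeq lists CG15366 and CG7267 as synonyms of CG44325. Since both genes are transcribed from the minus strand, strand cannot separate their reads. An antisense RNA gene, asRNA:CR45538, shares 22 bases with the far end of the CG10970 5' UTR interval, and no source used here gives the strand setting of the counting.

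**Figure D1:**
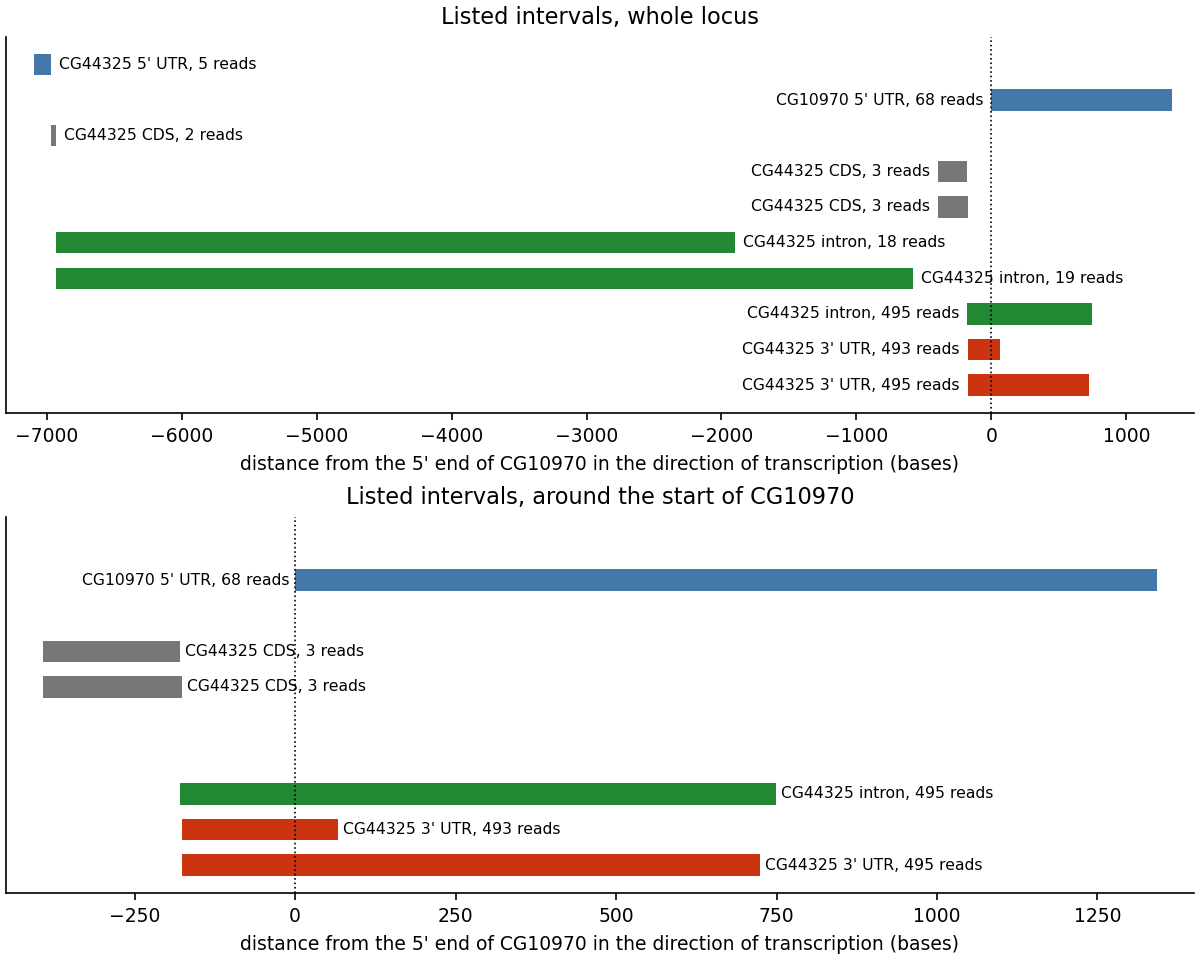
Position of the 10 listed intervals, drawn in the direction of transcription with the 5' end of CG10970 at 0, for the whole locus (top) and around that end (bottom). Bars are coloured by table (blue 5' UTR, grey CDS, green intron, red 3' UTR) and labelled with the reads of the 4 libraries together. The intervals with 493 and 495 reads begin upstream of CG10970 and run into its 5' UTR.

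Reads were solved from the deposited means, and the reads of the locus were concentrated in 1 short interval of CG44325. Its long 3' UTR interval (X, 9070684 to 9071583, 900 bases) held 495 reads over the 4 libraries, and the short 3' UTR interval nested in it (X, 9071342 to 9071583, 242 bases) held 493 of them. Thus 99.6% of the reads (exact 95% interval 98.5 to 99.95) lay in 26.9% of the length. The remaining 658 bases held 2 reads, so that the density of the short interval was 670-fold that of the rest, with a counting interval of 185 to 5550. These intervals cover counting error only, and no source used here says how duplicate reads were treated. The rule for this locus compared nested ranges and equal means, so the share and the ratio describe it and test nothing.

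The intron interval of CG44325 (X, 9070659 to 9071587, 929 bases) contains both 3' UTR intervals. It also held 495 reads, with the same number in each library as the long 3' UTR interval. The 25 bases of the intron beyond the long 3' UTR interval and the 4 bases before it therefore held 0 reads. What the intron table and the 3' UTR table list for this gene is the same set of reads, counted once as the intron of one transcript form and once as the 3' UTR of another. Of 1707 intronic ranges with 20 or more reads, 40 contained a 3' UTR range with 20 or more reads, and in 5 of these, from 4 genes, the reads were equal in every library. The order of the libraries in the intron table was itself set by 4 pairs of this kind outside the locus, chosen for equal totals.

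The 5' UTR interval of CG10970 (X, 9070066 to 9071408, 1343 bases) held 68 reads. It shares 67 bases, from 9071342 to 9071408, with the short 3' UTR interval of CG44325. It also covers the 658 bases in which CG44325 had 2 reads, which leaves at most 66 reads for the shared 67 bases. At least 427 of the 493 reads (86.6%), and up to all of them, therefore lay between 9071409 and 9071583. These are the 175 bases just upstream of the annotated 5' end of CG10970. There the density was between 2440 and 2817 reads per 1000 bases, against at most 985 in the shared bases. The other 593 bases of the CG10970 interval, 9070066 to 9070658, are covered by no other listed interval of the locus. The RefSeq model of CG44325 reaches into them, to 9070318. How the 66 reads divide between these bases and the shared ones cannot be told from the listed intervals. From 0 to 66 of the reads can lie in either place.

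This subtraction across tables holds only if the tables count the same reads. Where a range stands in more than 1 table, the reads in all 4 libraries were equal in 14 of 14 ranges shared by CDS and 3' UTR. They were equal in 9 of 9 shared by 5' UTR and CDS, and in 2 of 2 shared by the UTR tables. The order of the unnamed libraries was chosen to make the most of the 14 and of the 9 ranges equal. Only the 2 ranges of the UTR tables were not used for that choice.

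**Figure D2:**
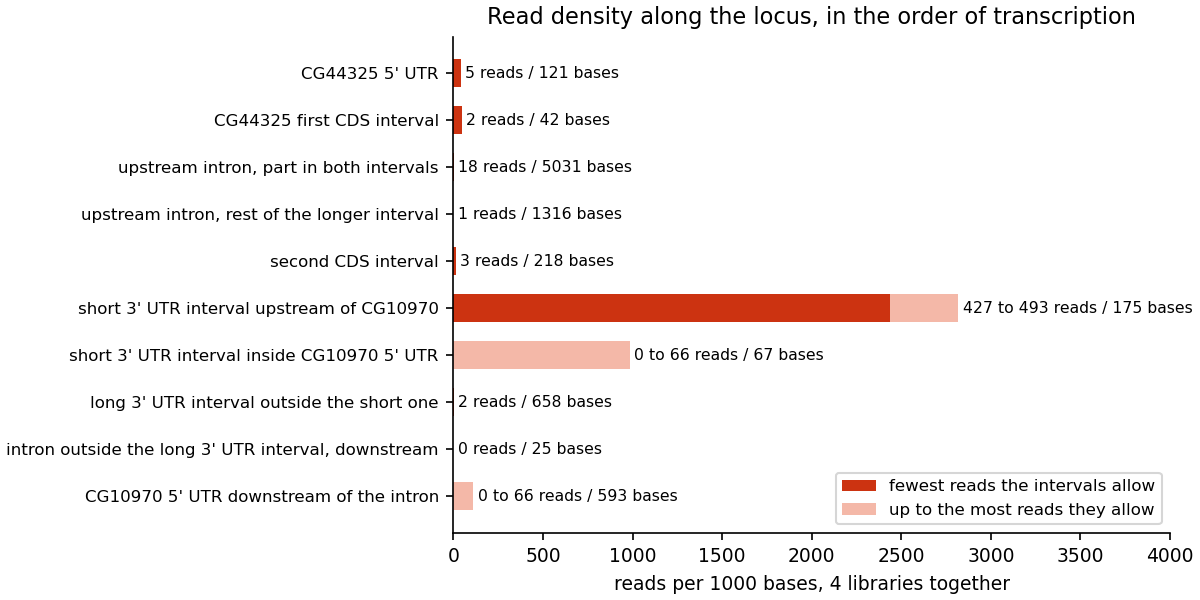
Reads per 1000 bases over the 4 libraries together in successive stretches of the locus, from the 5' end of CG44325 at the top to the end of the CG10970 5' UTR at the bottom. Full bars give the fewest reads that the listed intervals allow and pale bars the most. The stretch upstream of CG10970 holds 427 to 493 reads in 175 bases, and the stretches on either side of the short 3' UTR interval hold 3 and 2 reads.

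The rest of CG44325 held few reads. Its coding interval directly upstream of the dense stretch (X, 9071584 to 9071801, 218 bases) had 3 reads, or 13.8 per 1000 bases. A second listing of that interval, from 9071588, had the same 3 reads, so 0 reads fell in the 4 bases by which the listings differ. The upstream intron (X, 9071990 to 9078336, 6347 bases) had 19 reads, of which 18 lay in the 5031 bases from 9073306 and 1 in the other 1316. The coding interval at the start of the gene (X, 9078337 to 9078378) had 2 reads and the 5' UTR (X, 9078379 to 9078499) had 5, which in intervals of 42 and 121 bases gave 47.6 and 41.3 reads per 1000 bases. Thus the signal fell from 2037 reads per 1000 bases in the short 3' UTR interval to under 50 in every other interval of CG44325 that does not contain it.

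Per length, the short 3' UTR interval was the densest of all 4298 listed 3' UTR ranges. The median was 9.23 reads per 1000 bases, and the next densest range, that of Mec2, had 1295. The long interval, with 550 reads per 1000 bases, ranked 11. The intron interval, with 533, ranked 5 of 8704 intronic ranges and 1 of 1990 on the X. The 5' UTR interval of CG10970 was less unusual in density, at 50.6 reads per 1000 bases and rank 336 of 2147, although its deposited mean ranked 11. Among 188 genes with 2 nested 3' UTR intervals of at least 20 reads each, the share of reads in the shorter interval over its share of the length had a median of 1.41. For CG44325 it was 3.70, rank 13, and 1 gene of the 188 had more reads. With 26.9% of the length in the shorter interval, 3.70 is near the highest value this ratio can take. The rank thus depends on the annotated lengths, and the shorter interval of CG9947, the first, has 4.98% of the length.

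**Figure D3:**
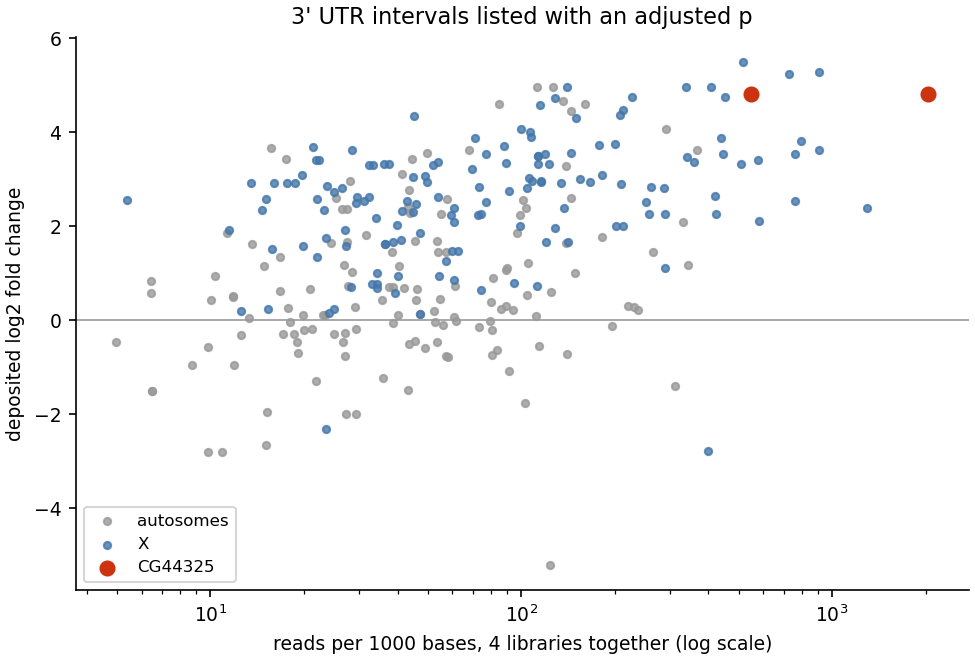
Deposited log2 fold change (vertical) against reads per 1000 bases over the 4 libraries together (horizontal, log scale) for the 289 3' UTR ranges listed with an adjusted p. Points are intervals on autosomes (grey) or the X (blue), and red points are the long and short intervals of CG44325, at 550 and 2037 reads per 1000 bases and log2 fold changes of 4.81 and 4.80. The short interval is the rightmost point.

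The reads were unevenly spread over the 4 libraries, which carry no names in the tables. They are numbered here by the size of their scaling factor in the 3' UTR table, and none was assigned to a sample or to an antibody. The long 3' UTR interval of CG44325 had 126 reads in library 1, 364 in library 2, 4 in library 3 and 1 in library 4. Divided by the size factors solved from the deposited means, these were 60.3, 219.3, 5.26 and 2.11 normalized reads. Libraries 1 and 2 were thus far above libraries 3 and 4, and library 2 alone held 73.5% of the reads.

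The 4 libraries differed in depth, with 16992, 17055, 4633 and 1752 reads over non-overlapping listed 3' UTR intervals. As a share of these totals, the long interval took 0.742% of library 1 (exact 95% interval 0.618 to 0.882), 2.13% of library 2 (1.92 to 2.36), 0.0863% of library 3 (0.0235 to 0.221) and 0.0571% of library 4 (0.00145 to 0.318). The intervals of libraries 1 and 2 do not overlap with each other or with those of libraries 3 and 4, while libraries 3 and 4 cannot be separated at this depth.

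The CG10970 5' UTR interval had 28 reads in library 1, 39 in library 2, 0 in library 3 and 1 in library 4. These were 17.4, 36.96, 0 and 1.58 normalized reads. Again libraries 1 and 2 were the high ones, with 67 of the 68 reads. As a share of the 5' UTR reads of a library this was 0.723% of library 1 (exact 95% interval 0.481 to 1.04) and 0.983% of library 2 (0.700 to 1.34), which overlap. Library 3 had 0 of 696 reads, which allows a share of up to 0.431%, and an exact interval up to 0.529%, which overlaps that of library 1. Library 4 had 0.284% (0.00719 to 1.57), and at this depth it could not be separated from any other library for CG10970.

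The balance of libraries 1 and 2 was set side by side for the 2 genes. Library 2 held 74.3% of the CG44325 3' UTR reads of these libraries (exact 95% interval 70.2 to 78.1) and 58.2% of the CG10970 reads (45.5 to 70.2). The ends of these intervals nearly meet, they cover counting error only, and the difference was not tested. Over all 3' UTR intervals library 2 held 50.1% and over all 5' UTR intervals 50.6%. Among 587 3' UTR ranges with 20 or more reads in libraries 1 and 2, 28 had a higher share in library 2 than CG44325, and the median was 48.8%. For the 5' UTR of CG10970 the number was 27 of 69 ranges around a median of 55%.

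**Figure D4:**
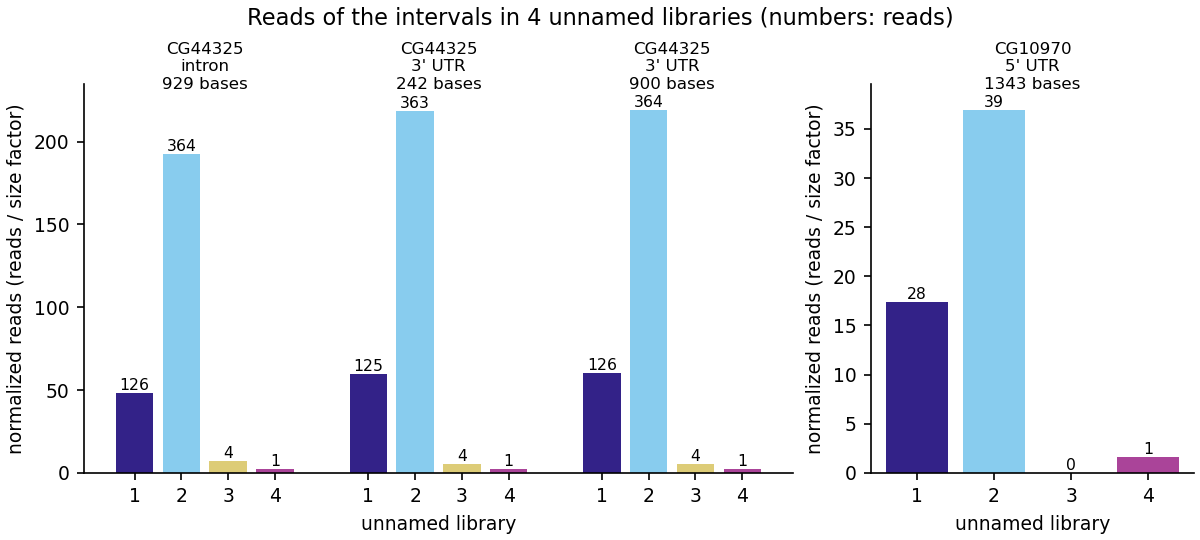
Normalized reads (reads divided by the size factor of the library) in the 4 unnamed libraries for CG44325, intron and 3' UTR (left), and for CG10970, 5' UTR (right, own axis). Numbers above the bars are reads. Libraries 1 and 2 hold nearly all reads of each interval, and library 2 is the highest in each.

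Each of the sparse intervals of CG44325 had reads in libraries 1 and 2 and none in libraries 3 and 4, except the coding interval at the start of the gene, whose 2 reads were both in library 1. The upstream intron had 8 reads in library 1 and 11 in library 2. The 5' UTR had 4 and 1, and the coding interval next to the dense stretch had 2 and 1. Libraries 1 and 2 were also the deeper ones in the 5' UTR, intron and 3' UTR tables. In the CDS table library 3, with 2201 reads, was deeper than library 2, with 1314. The part of depth in this pattern was not tested.

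In the authors' deposited tables the fold change between the Ssx and IgG libraries was positive for all 10 intervals. The tables do not write out the direction, and a positive value was taken to mean more reads with the Ssx antibody, the likely reading. Over all listed intervals, 82.7% were positive in the 5' UTR table, 68.3% in the CDS table, 62.3% in the intron table and 59.7% in the 3' UTR table. Of the 10 intervals, 7 have a deposited adjusted p and 4 were called, all with a positive fold change, but the 3 of CG44325 rest on the same 495 reads and are 1 observation.

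The long 3' UTR interval of CG44325 had a mean of 71.7 normalized reads in the authors' deposited table, at a log2 fold change of 4.81 with an SE of 0.87 (adjusted p = 7.27e-06 by DESeq2). The short one had 71.5 and 4.80 ± 0.87 with the same adjusted p in the authors' deposited table. Among 3' UTR intervals with an adjusted p, 33.2% were called with a positive fold change, and on the X alone 52.0%. The median log2 fold change of these intervals was 1.85, and 2.78 on the X, in the authors' deposited table. CG44325 ranked 2 of 289 ranges by p and 9 by fold change, and 2 and 7 of 148 on the X.

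The intron interval had a mean of 62.7 normalized reads in the authors' deposited table, at a log2 fold change of 4.14 with an SE of 0.93 (adjusted p = 0.000903 by DESeq2). Here 3.62% of intervals with an adjusted p were called with a positive fold change, and the median log2 fold change was 0.71 in the authors' deposited table. It ranked 5 of 1012 ranges by fold change and 9 by p. The same reads thus gave 4.81 in one table and 4.14 in the other. The reads were divided by different size factors, 2.09, 1.66, 0.760 and 0.473 for libraries 1 to 4 in the 3' UTR table and 2.60, 1.89, 0.551 and 0.402 in the intron table, so fold changes from different tables are not on 1 scale.

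The 5' UTR interval of CG10970 had a mean of 13.98 normalized reads in the authors' deposited table, at a log2 fold change of 4.20 with an SE of 1.47 (adjusted p = 0.0490 by DESeq2), just under the threshold. Of the 5' UTR intervals, 10.7% of those with an adjusted p were called with a positive fold change. Among those with a mean of at least 10, as CG10970 has, the share was 56.25%. The median log2 fold change of the 5' UTR intervals with an adjusted p was 3.26 in the authors' deposited table. CG10970 ranked 16 of 121 ranges by fold change and 11 by p, and its value lay within 1 SE of that median. The call was lost when the deposited DESeq2 p-values were readjusted here by Benjamini-Hochberg over all listed 5' UTR intervals (adjusted p = 0.756). It was also lost when they were readjusted over the 4 tables together (adjusted p = 0.435). The CG44325 calls were kept, at readjusted DESeq2 p-values of 5.68e-05 and 9.72e-05 for the 3' UTR and 0.00788 and 0.00865 for the intron. With the 5' UTR of CG10970 sharing bases with the dense interval of CG44325, the gene of origin of its 68 reads is uncertain.

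The other intervals did not pass. The coding intervals of CG44325 had log2 fold changes of 0.68 ± 1.36 at the start of the gene and 0.94 ± 1.42 next to the dense stretch (DESeq2 adjusted p = 0.855 for each) in the authors' deposited table, where 0% of 1921 intervals were called and 0 had an unadjusted p under 0.05. The 5' UTR of CG44325 (1.26 ± 1.97, unadjusted p = 0.521) and the upstream intron (2.08 ± 1.60, unadjusted p = 0.193, and 2.02 ± 1.60 for its shorter form) were listed without an adjusted p in the authors' deposited tables. These intervals held 2 to 19 reads, and whether their fold changes differ from that of the dense stretch was not tested.

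No interval of another gene overlapped the 8434 bases from 9070066 to 9078499 that the 10 intervals span. The nearest listed gene on either side had almost no reads. CG15365 had up to 10 reads in its introns, and the authors' deposited table gives 0.40 ± 1.61 as its log2 fold change. HP1b, which encodes a heterochromatin protein 1 family member, had up to 3 reads in its 3' UTR on the plus strand, with 0.45 ± 1.69 in the authors' deposited table.

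CG44325 was 1 of 5 genes called with a positive fold change in more than 1 table, together with Act5C, RpL17, RpS5a and mgl, all on the X. The 495 reads of CG44325 compare with 179 in the intron of the actin gene Act5C and 263 in its densest called 3' UTR interval. Other called 3' UTR intervals of Act5C had 258 to 582 reads per 1000 bases, and their reads were not compared here. The intron and 3' UTR of mgl, the megalin receptor gene, had 240 and 366 reads. The intervals of the ribosomal protein genes RpL17 and RpS5a had 49 to 124. Per length, the intron of CG44325 had 533 reads per 1000 bases, that of Act5C 107, that of RpL17 100.3 and that of mgl 8.81. For Act5C and mgl the called intron and 3' UTR intervals with these reads do not overlap. For RpL17 the called 5' UTR and intron intervals share the bases from 6743950 to 6744145. Among intervals with 20 or more reads, Jabba, with a negative fold change, was the only other gene whose called intron held the same reads, 36, as a 3' UTR interval inside it.

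The likeness of other intervals was measured as the sum, over the 4 unnamed libraries, of the absolute difference in the share of normalized reads, among genes with at least 20 reads. For the 3' UTR of CG44325, 6 of 435 genes tied at 5.14 percentage points against a median of 73.0. These were CG2691, CG45086, Galphaq, Jafrac1, brat and fs(1)h, of which CG45086 and Galphaq overlap and share 85 reads. For the intron, 6 of 748 genes tied at 7.77 percentage points, Atpalpha, CG11148, CG40045, CtBP, Pep and l(2)gl. For the 5' UTR of CG10970 the closest of 53 genes were Pdi, cwo and tara, each at 5.65 percentage points. Each named gene whose values were tabulated had 0 reads in libraries 3 and 4 and 20 to 85 reads in all. For such a gene the sum has a lowest possible value, set by the share of the member in libraries 3 and 4. The ties lie at that value and do not mean the same balance of libraries 1 and 2. Library 1 held 23.2% of the normalized reads of CG2691 and 21.7% of those of Galphaq.

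Of the 5 genes Sxl, ssx, msl-2, roX1 and roX2, 4 were listed in the tables, 2 had an adjusted p outside the CDS table and 1, Sxl, was called with a positive fold change, in the 3' UTR table, where 33.2% of all intervals with an adjusted p and 52.0% of those on the X were called, so that 1 of 2 is about the background. As iCLIP reads give no expression level, the labelled cell type could only be set against the listed genes. Of 7 genes of male dosage compensation 6 were listed, and of 6 haemocyte genes 3 were. Of these, 1 and 0 had an adjusted p outside the CDS table, and 0 were called. The tables list 4841 genes, from 2 reads up, and the share of all genes that are listed was not determined. The counts therefore do not identify the cells.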

How the data were processed

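The tables hold iCLIP statistics for 2 Ssx IP and 2 control IgG IP libraries of SL2 cells. The submitters' processing notes name cutadapt 1.6, Bowtie 0.12.7, DESeq2 1.14.1, DESeq and the builds BDGP6 and dm6. No source used here describes the counting, strand, duplicate handling or annotation. Per the file headers, the authors deposited for each interval a mean signal (reads over size factors, averaged over the libraries), a log2 fold change with its standard error, a test score and a p-value with an adjusted p-value. No column holds values of a single library, so no test was run, and the planned fits on counts could not be made.

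The deposited means rise in steps that 1 read adds in each library. Whole reads in 4 libraries were solved from them within a relative tolerance of 1e-14, with 1 solution for 100% of intervals in the UTR and CDS tables and for 8795 of 8796 introns. The solver and the adjustment were tested on simulated data. Libraries were matched between tables by ranges listed in 2 tables and, for introns, by 4 introns that contain a 3' UTR interval with equal reads, and were assigned to no group. Totals were summed over non-overlapping intervals. Shares of counted reads have exact Clopper-Pearson 95% intervals, and a count of 0 was bounded by 3 counts. A share that is only a lower bound has no such interval. Ranks are over distinct ranges.

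The rule for named genes took every row of both genes, overlapping and nearest listed genes, the 3 most alike genes per table (all genes tied with them were named) and genes called in more than 1 table. Members, lists and rules were chosen with earlier results of these data known. Names were matched to RefSeq Release 6. Python 3.11.15, pandas 2.3.3, numpy 2.4.6, scipy 1.17.1 and matplotlib 3.10.9 were used. Alternatives covered the p adjustment, the threshold, the direction, the unit counted, a filter on the mean, the X alone and the tolerance.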

Additional observations from a re-analysis of the deposited data

How the results depend on the processing

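With p-values adjusted over only those intervals that have a deposited adjusted p, the 4 calls of the locus were kept. They fell to 3, without CG10970, when adjusted over all listed intervals of a table or of the 4 tables, or at a threshold of 0.01. With the sign read the other way, 0 of the intervals would be higher in the Ssx IP. The share of intervals called with a positive fold change depended on these choices. Adjusted over all listed intervals of the table it was 0% in 5' UTRs, 0.0455% in introns and 0.512% in 3' UTRs. Adjusted over those of all tables it was 0.0926%, 0.0455% and 0.442%. These are shares of all listed intervals, not only of those with an adjusted p, so they do not compare directly with the other shares. At 0.01 the shares were 1.64%, 0.391% and 15.9%, and at 0.1 introns had 9.97%. With the opposite direction they were 0%, 5.57% and 0.692%. Among intervals with a mean of at least 10 the 5' UTR share was 56.25%, and on the X the 3' UTR share was 52.0%; the cause was not tested. A tolerance of 1e-12 gave the same reads for the 4 intervals with the most reads. No paired analysis was possible because the tables hold no values of named libraries, and for the same reason no replicate was left out. Runs of T were not counted, since no genome sequence was used here. The depth of libraries 3 and 4 limits the comparisons that involve them.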
